A study of Mus musculus with 3 samples.

Results

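The genes of MHC class II antigen presentation were followed through 3 mouse brain sections profiled on Visium arrays, which count messenger RNA molecules on a grid of barcoded spots. The 7 members were chosen by gene symbol among the 31053 genes of the deposited tables: Cd74, H2-Aa, H2-Ab1, H2-Eb1, Ciita, H2-DMa and H2-DMb1. Each symbol matched 1 gene ID. The sections were fresh frozen brain of C57BL/6J mice, cut at 10 µm, and each group held 1 section: O-Ex (treatment Exercise), O-Ctrl (treatment Control) and Y-Ctrl (treatment Control). The study asked whether exercise changes signatures of aging across the brain, so O and Y were read as old and young. The sources used here do not give ages, how long or in what way the mice exercised, or how many animals there were. Nuclear RNA is the molecule named in the labels, whereas the protocol places whole tissue sections on the array.

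MHC class II molecules carry peptides of engulfed proteins to the surface of antigen-presenting cells, where CD4 T cells read them. H2-Aa and H2-Ab1 encode the alpha and beta chains of I-A, and H2-Eb1 the beta chain of I-E. C57BL/6 mice carry a deletion in the I-E alpha gene, so I-E is not displayed on their cells. Cd74, the invariant chain, escorts new class II molecules to the endosome and blocks their groove, and H2-DM, formed by the products of H2-DMa and H2-DMb1, exchanges the remaining fragment for peptide. Ciita is the transactivator that switches the group on, mostly in dendritic cells, B cells and macrophages. In the healthy brain, class II is known mainly from macrophages and dendritic cells of the meninges and choroid plexus, and microglia carry little.

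Spots with at least 3000 unique molecular identifiers (UMIs) were kept: 3332 in O-Ex, 3498 in O-Ctrl and 3409 in Y-Ctrl. Kept spots held between 51862713 and 61186997 UMIs per section, with a median of 13685 UMIs per spot in O-Ex, 14900 in O-Ctrl and 15718 in Y-Ctrl. All 4992 barcodes are shared by the sections, because the array design repeats, so the samples cannot be told apart by barcode. One spot covers tissue of more than 1 cell. Levels are CPM, the UMIs of a gene summed over spots and scaled to a common total of all UMIs there. With 1 section per group there is no replicate, no p-value can be given, and every interval is a 95% interval of counting error only. Fewer cells of a type and less RNA per cell cannot be told apart in these sums. Since spot images and positions were not used here, regions are clusters of expression, 9 of 20 named by fixed markers. The brain identity of the sections was plain in the neuronal gene Snap25, at 2319.5, 2180.8 and 2278.3 CPM in O-Ex, O-Ctrl and Y-Ctrl.

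Over whole sections, 5 of the 7 transcripts stood in the same order, with O-Ex above O-Ctrl above Y-Ctrl and no overlap between the intervals of neighbouring sections, although those of H2-DMb1 in O-Ex and O-Ctrl nearly touch. Cd74 was at 23.4 CPM (22.1 to 24.7) in O-Ex, 10.1 CPM (9.31 to 10.98) in O-Ctrl, and finally 4.72 CPM (4.19 to 5.30) in Y-Ctrl. H2-Aa was at 11.8 CPM in O-Ex, 7.21 CPM in O-Ctrl and 2.37 CPM in Y-Ctrl. The partner chain kept step with it: H2-Ab1 was at 11.2 CPM in O-Ex, 6.93 CPM in O-Ctrl and 2.40 CPM in Y-Ctrl.

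H2-Eb1, the I-E beta chain, was at 9.81 CPM in O-Ex, 4.82 CPM in O-Ctrl and 3.02 CPM in Y-Ctrl. The H2-DM beta chain, H2-DMb1, was at 4.78 CPM (4.21 to 5.42) in O-Ex, 3.67 CPM (3.19 to 4.20) in O-Ctrl, and then 1.78 CPM (1.46 to 2.15) in Y-Ctrl. Its partner H2-DMa stood apart from all of these, at 14.2 CPM (13.2 to 15.3) in O-Ex, 13.02 CPM (12.1 to 14.0) in O-Ctrl, and then 12.5 CPM (11.6 to 13.4) in Y-Ctrl, with neighbouring intervals that overlap. Ciita was close to the detection limit, with 6 UMIs in O-Ex, 17 in O-Ctrl and 1 in Y-Ctrl, and each of these UMIs lay in a spot of its own. Levels were not compared between genes, since a 3' UMI count depends on how well each transcript is captured.

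**Figure D1:**
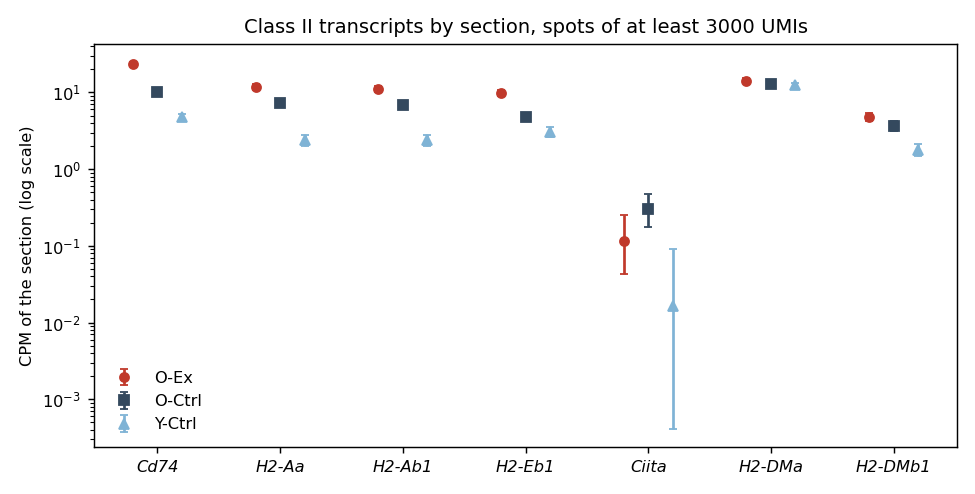
CPM of each class II gene (log axis) in the O-Ex, O-Ctrl and Y-Ctrl sections, as points with 95% Poisson intervals of the UMI count. Cd74, H2-Aa, H2-Ab1, H2-Eb1 and H2-DMb1 step down from O-Ex through O-Ctrl to Y-Ctrl, H2-DMa is nearly level at 14.2, 13.02 and 12.5 CPM, and Ciita rests on 6, 17 and 1 UMIs.

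A gene was counted as higher or lower when log2(CPM + 1) differed by at least 1.5-fold, among genes whose mean over the 3 sections reached 1 CPM. In O-Ex over O-Ctrl, 4 of the 6 members past that floor were higher and none was lower: Cd74 (log2 ratio 1.13), H2-Eb1 (0.89), H2-Aa (0.65) and H2-Ab1 (0.62). Of all 13874 genes past the floor, 1.74% were higher, 0.317% lower and 2.05% either in this comparison. H2-DMb1 had a log2 ratio of 0.31 and H2-DMa of 0.12. The calls of H2-Aa and H2-Ab1 lay just past the size used, and the count became 2 of 6 with TMM scaling or with ratios centred on the median of all genes, which stood at 0.08. The share of all genes higher was 1.19% with TMM scaling and 1.15% with centring.

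In O-Ctrl over Y-Ctrl, 4 of 6 were again higher and none lower: H2-Aa (log2 ratio 1.28), H2-Ab1 (1.22), Cd74 (0.96) and H2-DMb1 (0.75). Here 1.24% of all genes were higher, 0.562% lower and 1.8% either. H2-Eb1, at 0.53, was just short of the size used, and H2-DMa had a ratio of 0.06. The comparisons share the O-Ctrl section, so its level enters both with opposite sign. Summed over the 7 genes, UMIs amounted to 75.3 CPM (73.0 to 77.7) in O-Ex, 46.1 CPM (44.3 to 47.9) in O-Ctrl, with 26.8 CPM (25.5 to 28.1) in Y-Ctrl. The log2 ratio of the sums was 0.71 (0.64 to 0.78) for O-Ex over O-Ctrl and 0.78 (0.69 to 0.87) for O-Ctrl over Y-Ctrl. H2-DMa gave 738 of 3906 summed UMIs in O-Ex, 742 of 2626 in O-Ctrl and 763 of 1639 in Y-Ctrl, so it flattens these sums, most of all in Y-Ctrl. Without it the log2 ratios were 0.89 and 1.21.

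The structural chains lie together in the MHC of chromosome 17. In GRCm38 (mm10) coordinates of the GENCODE annotation, H2-DMa spans chr17:34119541-34139101, H2-DMb1 chr17:34153072-34160230, H2-Ab1 chr17:34257689-34269419 and H2-Eb1 chr17:34305867-34316674, all on the plus strand, and H2-Aa chr17:34282744-34287823 on the minus strand. Ciita lies on chromosome 16 (chr16:10480059-10528418, plus strand) and Cd74 on another chromosome. The start of H2-DMa (chr17:34119541-34122634) overlaps Brd2 on the other strand, a chromatin reader at 49.7, 51.3 and 54.4 CPM in O-Ex, O-Ctrl and Y-Ctrl. Ciita overlaps Dexi on the other strand, at 53.7, 45.6 and 48.8 CPM in the same order. The counting strand is not given in the sources used here, so whether the reads of such pairs were told apart is not known. In the pair of H2-DMa and Brd2 the overlap lies at the start of both genes, not at their ends. H2-DMb1 has a near copy, H2-DMb2 (0.309, 0.421 and 0.196 CPM in O-Ex, O-Ctrl and Y-Ctrl), and reads common to both may be counted for neither.

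Class II promoters are known for an X box, bound by the RFX complex, followed by a Y box, an inverted CCAAT element bound by NF-Y, and this platform recruits Ciita. RefSeq promoters of GRCm38.p6 were found for 4 members: H2-Aa, H2-Eb1, H2-DMa and H2-DMb1. The windows of H2-Aa and H2-Eb1 are shown because both genes were concentrated in the border tissues and their starts are the same in RefSeq and GENCODE. Each is the 120 bases before the start, 5′ to 3′ on the gene's strand, and capitals mark GNAAC, the start of the X box, and GATTGG, the Y box. H2-Aa is chr17:34287824-34287943 (minus strand) and H2-Eb1 chr17:34305747-34305866 (plus strand).
H2-Aa: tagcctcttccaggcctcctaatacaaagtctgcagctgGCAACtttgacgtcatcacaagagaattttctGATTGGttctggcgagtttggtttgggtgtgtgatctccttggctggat
H2-Eb1: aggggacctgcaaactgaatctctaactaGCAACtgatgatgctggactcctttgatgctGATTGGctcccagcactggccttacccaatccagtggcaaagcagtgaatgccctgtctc

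In H2-Aa the boxes began at -81 and -49 relative to the start, 32 bases apart, and in H2-Eb1 at -91 and -60, 31 bases apart. H2-DMb1 held the same pair at -94 and -62. Neither window of H2-DMa, which has 2 annotated promoters, held GNAAC followed by GATTGG at this distance. The pair, with 28 to 36 bases from start to start on either strand, occurred in 0.487% of all 32851 windows of 250 bases, and GATTGG alone on either strand in 14.6%. The distance was chosen after these sequences were seen. These are matches of letters and say nothing of binding in these sections.

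Class II transcripts were concentrated in the border tissues. The meninges group, whose leading genes were Ptgds, hemoglobins, Myoc, Mgp and Dcn, had 102 spots in O-Ex, 108 in O-Ctrl and 108 in Y-Ctrl. The choroid plexus group, led by Ttr, Enpp2, 1500015O10Rik and Kl, had 184, 105 and 120 spots and also took in ventricle wall. Together these groups held 8.58% of spots in O-Ex, 6.09% in O-Ctrl and 6.69% in Y-Ctrl, and 62.3%, 41.6% and 35.1% of all class II UMIs. In the choroid plexus group the 7 genes summed to 468 CPM (447 to 489) in O-Ex, 348 CPM (323 to 375) in O-Ctrl, with 139 CPM (124 to 155) in Y-Ctrl. In the meninges group they summed to 324 CPM (296 to 355) in O-Ex, 261 CPM (236 to 289) in O-Ctrl, with 152 CPM (134 to 172) in Y-Ctrl. All other spots together were at 31.9, 28.7 and 18.6 CPM in the same order. Border over rest was 13.5-fold in O-Ex, 10.9-fold in O-Ctrl and 7.79-fold in Y-Ctrl.

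The members divided sharply by this measure. Border over rest for H2-Aa was 31.7-fold in O-Ex, 26.9-fold in O-Ctrl and 39.1-fold in Y-Ctrl. For Cd74 it was 24.4-fold in O-Ex, 21.8-fold in O-Ctrl and 32.3-fold in Y-Ctrl. H2-Ab1 and H2-Eb1 ranged from 17.2-fold to 31.2-fold over the sections, and H2-DMb1 had lower ratios of 6.97-fold in O-Ex, 6.16-fold in O-Ctrl and 4.06-fold in Y-Ctrl. H2-DMa showed no such excess, with 15.6 CPM in the border against 14.1 CPM elsewhere in O-Ex, 14.0 against 12.95 CPM in O-Ctrl and 11.6 against 12.5 CPM in Y-Ctrl, and each of these ratios had an interval that includes equality. The border groups taken singly differed, since H2-DMa was 2.12-fold (1.52 to 2.89) over the rest in the meninges group of O-Ex and 0.592-fold (0.343 to 0.955) in the choroid plexus group of Y-Ctrl. The place of Y-Ctrl in the summed ratio changed without H2-DMa, while O-Ex was above O-Ctrl with and without it. Border over rest of the sums was 3.76 in O-Ex, 3.45 in O-Ctrl and 2.96 in Y-Ctrl on the log2 scale, and 4.54, 4.25 and 4.46 without H2-DMa.

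**Figure D2:**
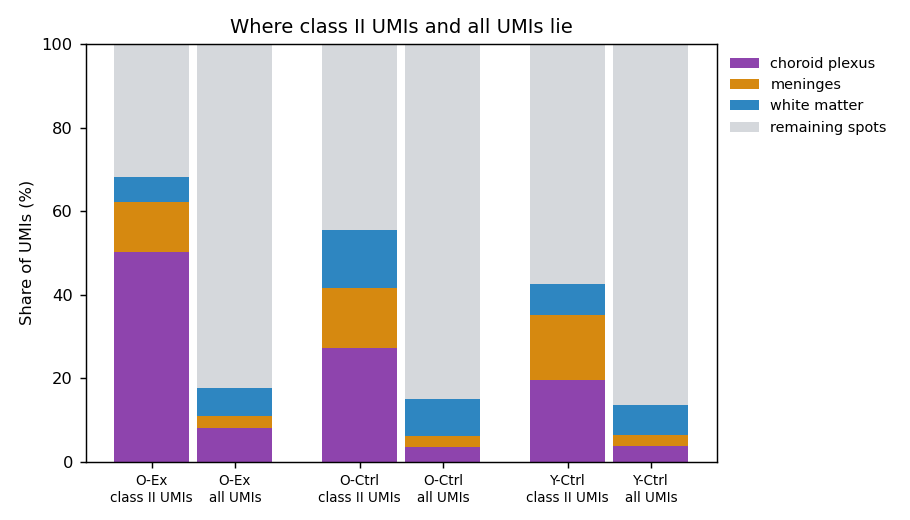
Share of class II UMIs (left bar of each pair) and of all UMIs (right bar) in the choroid plexus group, the meninges group, white matter and the remaining spots, for O-Ex, O-Ctrl and Y-Ctrl. The choroid plexus and meninges groups hold 62.3%, 41.6% and 35.1% of class II UMIs and 10.9%, 6.14% and 6.51% of all UMIs.

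The number of spots with at least 1 UMI showed a similar division, H2-DMa in O-Ex apart. Cd74 was found in 164 of 286 border spots in O-Ex, 101 of 213 in O-Ctrl and 63 of 228 in Y-Ctrl. Outside the border it was found in 244 of 3046 spots in O-Ex, 182 of 3285 in O-Ctrl and 68 of 3181 in Y-Ctrl. H2-Aa was found in 137, 78 and 44 border spots and in 105, 118 and 36 other spots of O-Ex, O-Ctrl and Y-Ctrl. The border spots were thus richer in both, and outside the border the H2-Aa count was not higher in O-Ex than in O-Ctrl.

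Border spots with H2-Ab1 numbered 119, 80 and 44 in O-Ex, O-Ctrl and Y-Ctrl, those with H2-Eb1 118, 70 and 49, and those with H2-DMb1 77, 45 and 21. Outside the border H2-Ab1 was in 124, 162 and 47 spots, H2-Eb1 in 100, 88 and 72, and H2-DMb1 in 129, 141 and 83. H2-DMa was in 73, 42 and 40 border spots and in 519, 569 and 556 other spots, that is in 17.0%, 17.3% and 17.5% of the other spots. In O-Ex, with 286 border spots, its share was larger in the border than outside. A share of spots also rises with depth. Choroid plexus spots of O-Ex had a median of 19396.5 UMIs, against 13685 over all kept spots of that section. Ciita was in 3 border spots of O-Ex, 5 of O-Ctrl and 0 of 228 of Y-Ctrl, which allows a share of up to 1.32% when 3 counts are taken as the limit of a count of 0, and in 3, 12 and 1 other spots.

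Any class II UMI was present in 36.1% of all spots in O-Ex, 33.8% in O-Ctrl and 26.2% in Y-Ctrl. With every spot thinned to 3000 UMIs the shares were 12.7%, 10.1% and 6.45%, in the same order. As a measure of RNA that strays from its source, Ttr, the transthyretin gene of choroid plexus epithelium, was found outside the border in 97.2%, 82.7% and 89.2% of spots in O-Ex, O-Ctrl and Y-Ctrl, at 1253, 795 and 404 CPM against 104651, 67088 and 55480 CPM within it. The part of stray RNA in the class II levels outside the border was not tested.

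Class II UMIs were concentrated in few spots of each section. The 10 richest spots held 17.1% of class II UMIs in O-Ex, 15.8% in O-Ctrl and 17.0% in Y-Ctrl, and the richest single spot held 97, 73 and 42. Spots with 10 or more class II UMIs numbered 62 in O-Ex, 37 in O-Ctrl and 13 in Y-Ctrl. Of the 100 richest spots, the choroid plexus group held 76 in O-Ex, 40 in O-Ctrl and 27 in Y-Ctrl, and the meninges group 16, 30 and 25. The other 8, 30 and 48 lay outside the border, as did 1 of the 10 richest in each control. Over all thinned spots, H2-Aa was found in 20.4% of spots with Cd74 against 1.57% of spots without it in O-Ex, 19.5% against 1.46% in O-Ctrl, and 14.3% against 0.533% in Y-Ctrl. These shares mix border and other spots. Within the border they were 34.7% against 10.4% in O-Ex, 29.3% against 9.30% in O-Ctrl and 35.7% against 5.61% in Y-Ctrl, on 75, 41 and 14 spots with Cd74. Outside it they were 6.49% against 0.943% in O-Ex and 9.76% against 1.05% in O-Ctrl, and none of 21 spots with Cd74 had H2-Aa in Y-Ctrl. For H2-DMa the shares over all spots were 5.26% against 3.71% in O-Ex, 6.10% against 3.40% in O-Ctrl, and 0% against 3.32% in Y-Ctrl.

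Within the choroid plexus group, the interval of O-Ex over O-Ctrl lay above equality for some members and not for others. Cd74 was at 175 CPM in O-Ex and 104 CPM in O-Ctrl, a log2 ratio of 0.75 (0.53 to 0.98). H2-Eb1 was at 80.5 CPM in O-Ex and 56.4 CPM in O-Ctrl, with a ratio of 0.51 (0.20 to 0.83). H2-Ab1 was at 83.8 CPM in O-Ex and 64.2 CPM in O-Ctrl, with a ratio of 0.39 (0.09 to 0.69). For these 3 genes O-Ex was higher beyond counting error. H2-Aa was at 95.5 CPM in O-Ex and 89.0 CPM in O-Ctrl, with a ratio of 0.10 (-0.15 to 0.36). H2-DMb1 was at 21.9 CPM in O-Ex and 19.9 CPM in O-Ctrl, and its interval (-0.41 to 0.70) is too wide to place it. A finer clustering separated choroid plexus proper (98, 38 and 45 spots in O-Ex, O-Ctrl and Y-Ctrl) from ependyma of the ventricle wall (85, 67 and 76 spots). The summed level was 648, 499 and 271 CPM in choroid plexus proper and 147, 144 and 37.1 CPM in ependyma. O-Ex over O-Ctrl was 0.38 (0.24 to 0.52) in the first and 0.03 (-0.29 to 0.36) in the second.

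In the meninges group Cd74 was at 120 CPM in O-Ex and 86.7 CPM in O-Ctrl, a log2 ratio of 0.47 (0.13 to 0.82). H2-Aa, H2-Ab1 and H2-Eb1 had ratios of 0.14, 0.00 and 0.30 there, with intervals that include equality. H2-DMa was at 29.9 CPM (21.6 to 40.2) in O-Ex and 14.6 CPM (9.01 to 22.3) in O-Ctrl, on 43 and 21 UMIs. In white matter the sum was 67.3 CPM in O-Ex and 73.0 CPM in O-Ctrl, a ratio of -0.12 (-0.36 to 0.12), and Cd74 was at 18.5 CPM in O-Ex and 18.2 CPM in O-Ctrl. In the remaining spots Cd74 was at 5.64 CPM in O-Ex and 3.03 CPM in O-Ctrl, a ratio of 0.89 (0.59 to 1.20), while H2-Aa was at 2.15 CPM in O-Ex and 2.14 CPM in O-Ctrl.

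Cd74 thus had an interval above equality in the choroid plexus, the meninges and the remaining spots, and H2-Aa in none of the 4 spot groups. When the 13 clusters that had 50 spots or more in each section were weighted equally, the mean log2 ratio of O-Ex over O-Ctrl was 0.74 for Cd74 (higher in 12 of 13 clusters), 0.25 for H2-Eb1, 0.20 for H2-DMa (higher in 9), 0.16 for H2-Ab1, 0.15 for H2-DMb1, 0.05 for H2-Aa and -0.34 for Ciita (higher in 2). Only Cd74 then passed 1.5-fold, and without the border groups no member did. Without those groups 0.485% of all genes were higher. Ciita rests on 6 UMIs in O-Ex and 17 in O-Ctrl, and a cluster without a Ciita UMI in both sections counts as not higher. The choroid plexus group held 5.52% of spots in O-Ex, 3.002% in O-Ctrl and 3.52% in Y-Ctrl. This share moves with the whole-section ratios of O-Ex over O-Ctrl but not with those of O-Ctrl over Y-Ctrl. Its part in the ratios was not tested beyond these values. In 1 cluster outside the border, led by Lypd1, Hpcal1 and Grp, the sum was 112 CPM in O-Ex, 32.4 CPM in O-Ctrl and 30.8 CPM in Y-Ctrl, on 162, 70 and 31 UMIs. It was singled out after its values were seen.

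**Figure D3:**
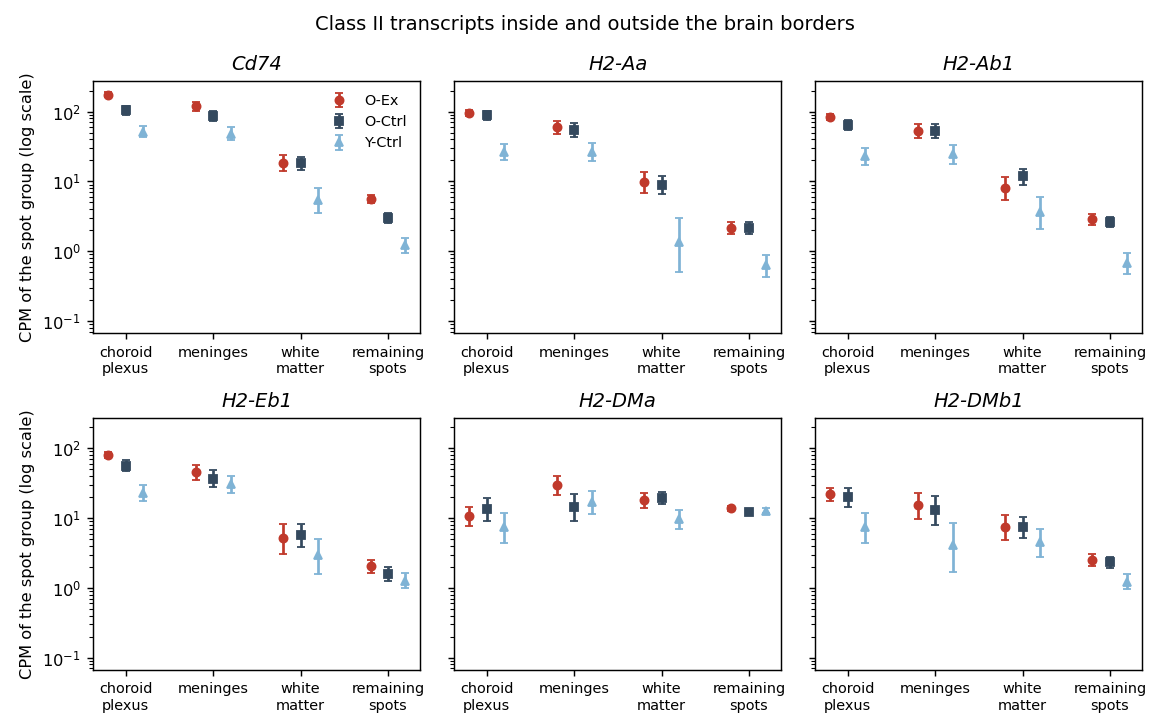
CPM (log axis) of 6 class II genes in the choroid plexus group, the meninges group, white matter and the remaining spots of O-Ex, O-Ctrl and Y-Ctrl, with 95% Poisson intervals. Cd74, H2-Aa, H2-Ab1, H2-Eb1 and, less steeply, H2-DMb1 drop from the border to the remaining spots, and H2-DMa stays between 7.42 and 29.9 CPM throughout.

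In O-Ctrl over Y-Ctrl the sums were above equality in all 4 spot groups. Their log2 ratio was 1.32 (1.13 to 1.52) in the choroid plexus group, 0.78 (0.55 to 1.02) in the meninges group, 1.38 (1.08 to 1.69) in white matter and 0.44 (0.31 to 0.56) in the remaining spots. White matter was at 73.0 CPM in O-Ctrl and 27.99 CPM in Y-Ctrl. There Cd74 was at 18.2 CPM in O-Ctrl and 5.46 CPM in Y-Ctrl, and H2-Aa at 9.0 CPM in O-Ctrl (45 UMIs) and 1.37 CPM in Y-Ctrl (6 UMIs). H2-DMa, nearly level over whole sections, was at 19.6 CPM (15.9 to 23.9) in white matter of O-Ctrl and 9.78 CPM (7.08 to 13.2) in that of Y-Ctrl, a ratio of 1.00 (0.47 to 1.55). In the remaining spots H2-Aa was at 2.14 CPM in O-Ctrl and 0.625 CPM in Y-Ctrl, and H2-Ab1 at 2.62 CPM in O-Ctrl and 0.682 CPM in Y-Ctrl. Over the 13 clusters the mean log2 ratio was 1.22 for H2-Aa (higher in 12), 1.20 for H2-Ab1 (higher in 13), 0.82 for Cd74 (higher in 12), 0.72 for H2-DMb1 (higher in 12), 0.45 for Ciita (higher in 8), 0.36 for H2-Eb1 (higher in 9) and 0.17 for H2-DMa (higher in 8). The values of Ciita rest on 17 UMIs in O-Ctrl and 1 in Y-Ctrl. In ependyma of the finer clustering the sum was 144 CPM in O-Ctrl and 37.1 CPM in Y-Ctrl, a ratio of 1.96 (1.47 to 2.47), and in choroid plexus proper it was 499 CPM in O-Ctrl and 271 CPM in Y-Ctrl, a ratio of 0.88 (0.67 to 1.09).

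**Figure D4:**
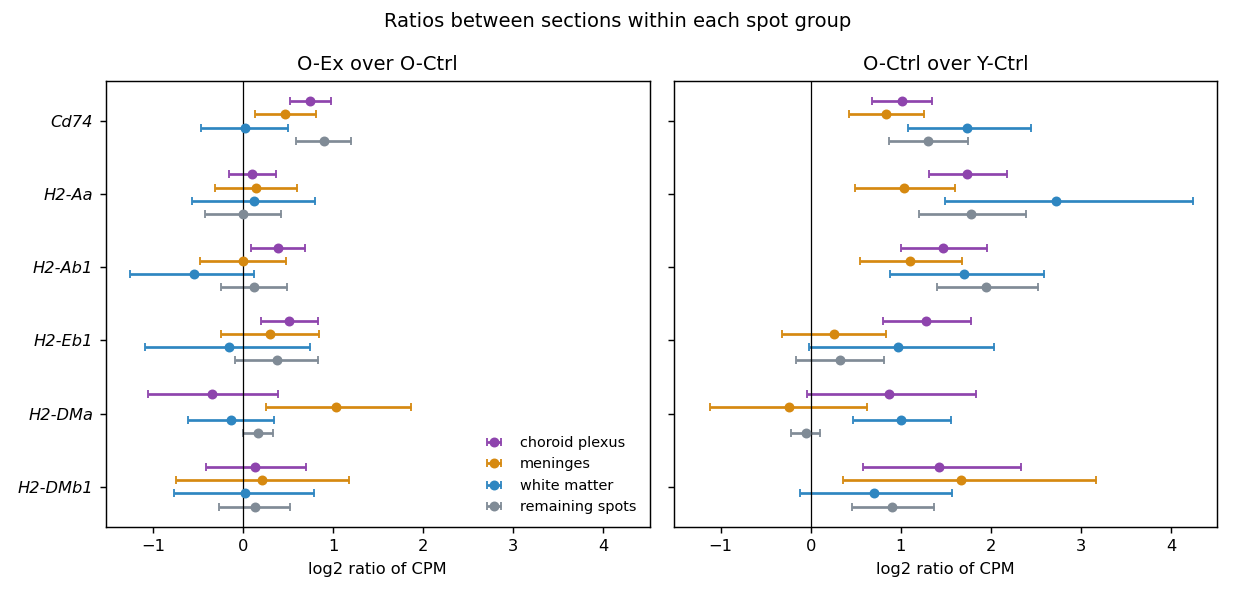
Log2 ratio of CPM of 6 class II genes within each spot group, for O-Ex over O-Ctrl (left) and O-Ctrl over Y-Ctrl (right), with 95% intervals of counting error. On the left Cd74 is above 0 in all groups but white matter and the other genes lie close to 0 in most. On the right H2-Aa and H2-Ab1 are above 0 in all 4 groups.

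Interferon gamma is the main inducer of Ciita, and its pathway had another profile over the sections. Of 20 genes of an interferon gamma list 17 passed the floor, and in O-Ex over O-Ctrl 8 were lower and none higher, with a median log2 ratio of -0.50 against 0.63 for the class II members and 0.08 for all genes. In O-Ctrl over Y-Ctrl 11 were higher and none lower, with a median of 1.01, beside 0.85 for the members. The O-Ctrl section is common to both, so its level alone gives such a pair of signs. Gbp2, an interferon-induced GTPase, was at 7.40 CPM in O-Ex, 32.1 CPM in O-Ctrl and 3.42 CPM in Y-Ctrl. Iigp1, another such GTPase, was at 2.10 CPM in O-Ex, 10.4 CPM in O-Ctrl and 1.29 CPM in Y-Ctrl. The list was highest in O-Ctrl in the border too, summing to 325, 704 and 301 CPM in the meninges group and to 268, 467 and 296 CPM in the choroid plexus group of O-Ex, O-Ctrl and Y-Ctrl. Class II sums were highest in O-Ex in both groups. Ciita itself, on 6, 17 and 1 UMIs in O-Ex, O-Ctrl and Y-Ctrl, was highest in O-Ctrl, though its intervals in O-Ex and O-Ctrl overlap. The part of interferon gamma in the class II levels was not tested.

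Other genes of the pathway varied less. None of the 8 genes of the class II transcription complex passed 1.5-fold in either comparison, and Rfx5, a subunit of the RFX complex, was at 9.20, 7.74 and 7.03 CPM in O-Ex, O-Ctrl and Y-Ctrl. Of 9 matched genes of class II antigen processing none passed in O-Ex over O-Ctrl and 1 was higher in O-Ctrl over Y-Ctrl: Ctsz, a lysosomal peptidase, at 83.2 CPM in O-Ex, 72.6 CPM in O-Ctrl and 46.9 CPM in Y-Ctrl. None of 5 other class II chains, chaperones and related genes past the floor was called in either comparison. Of 3 costimulation genes past the floor, Cd274, which encodes the checkpoint ligand PD-L1, was lower in O-Ex over O-Ctrl and higher in O-Ctrl over Y-Ctrl, at 1.60, 5.77 and 1.29 CPM in O-Ex, O-Ctrl and Y-Ctrl.

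**Figure D5:**
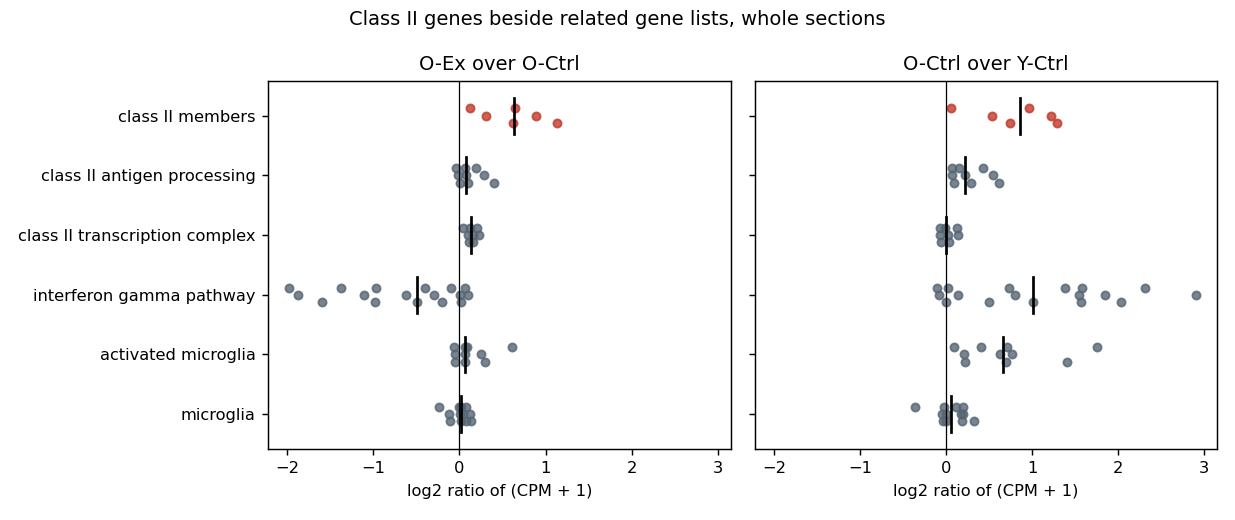
Log2 ratio of (CPM + 1) over whole sections for each gene past 1 CPM of 6 lists, for O-Ex over O-Ctrl (left) and O-Ctrl over Y-Ctrl (right). Points are genes, black bars medians. Class II members have medians of 0.63 and 0.85, interferon gamma genes of -0.50 and 1.01, and activated microglia genes of 0.07 and 0.66.

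Markers of the cells that can carry class II were read beside these levels. For border macrophages 3 of 12 genes passed the floor, none was called in either comparison, and the list summed to 20.1 CPM in O-Ex, 15.3 CPM in O-Ctrl and 14.3 CPM in Y-Ctrl. The mannose receptor Mrc1, the best known of them, was at 2.68, 2.19 and 2.06 CPM in the same order. Choroid plexus spots with at least 5 class II UMIs had 52.3 CPM of this list against 23.2 CPM in the other choroid plexus spots of O-Ex, 46.9 against 18.01 CPM in O-Ctrl and 39.2 against 27.1 CPM in Y-Ctrl. The spots rich in class II were also deeper, with a median of 28084 against 15330 UMIs in O-Ex, 23748 against 13460 in O-Ctrl and 29313 against 14814 in Y-Ctrl. They held less of the microglia list, at 241 against 417 CPM in O-Ex, 247 against 333 CPM in O-Ctrl and 184 against 289 CPM in Y-Ctrl. They also held less of the dendritic cell list, at 91.5 against 157 CPM in O-Ex, 105 against 189 CPM in O-Ctrl and 78.4 against 177 CPM in Y-Ctrl. Over whole sections most of that list came from 1 gene, Naaa, so its splits say little of dendritic cells. In the meninges group the border macrophage list was again higher in the spots rich in class II. It was at 351 against 130 CPM in O-Ex, 227.5 against 121 CPM in O-Ctrl and 246 against 113 CPM in Y-Ctrl. The microglia list ran the other way there than in the choroid plexus group, at 872 against 569 CPM in O-Ex and 724 against 499 CPM in O-Ctrl. The Y-Ctrl values were 541 against 499 CPM. The dendritic cell list of the meninges group was also higher in O-Ex (151 against 83.0 CPM) and O-Ctrl (105 against 76.4 CPM). In Y-Ctrl it was lower, at 49.2 against 65.5 CPM. The choroid plexus group takes in ventricle wall, so its split mixes tissues. For microglia all 12 genes passed the floor and none was called, with sums of 357 CPM in O-Ex, 345 CPM in O-Ctrl and 326 CPM in Y-Ctrl. In white matter the microglia sums were 940, 878 and 640 CPM. Of 10 activated-microglia genes past the floor, 1 was higher in O-Ex over O-Ctrl and 6 in O-Ctrl over Y-Ctrl, and this list summed to 6251 CPM in O-Ex, 6021 CPM in O-Ctrl and 2950.1 CPM in Y-Ctrl in white matter. Lyz2, the lysozyme of macrophages, was at 44.6, 35.98 and 12.9 CPM over whole sections. The part of these cells in the class II levels was not tested.

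Dendritic cell markers summed to 54.95, 52.6 and 41.8 CPM in O-Ex, O-Ctrl and Y-Ctrl with 4 of 12 past the floor. The lysosomal amidase Naaa gave most of this sum, at 36.8, 36.5 and 29.2 CPM, while Clec9a was at 0 in all sections and Xcr1 at 0 in both controls. Of the 12 genes, 11 had at least 1 UMI in O-Ex and 9 in each control. None of 9 B cell genes passed the floor, and their sum was 2.01 CPM in O-Ex, 2.26 CPM in O-Ctrl and 2.09 CPM in Y-Ctrl. Of the plasma cell list, 5 of 9 genes passed the floor, and 3 of them had larger log2 ratios in O-Ex over O-Ctrl than any member: Igkc (4.85), Jchain (2.15) and Ighm (1.20). Igkc, the kappa light chain, was at 48.5 CPM in O-Ex, 0.719 CPM in O-Ctrl and 2.27 CPM in Y-Ctrl, and Jchain, which joins secreted IgA and IgM, at 4.36, 0.211 and 0.343 CPM. Ighm was also among the fixed markers of layer 6 cortex. The plasma cell list summed in the meninges group to 749 CPM in O-Ex, 21.5 CPM in O-Ctrl and 30.8 CPM in Y-Ctrl. In O-Ex, choroid plexus spots with at least 5 class II UMIs held 924 CPM of this list and the other choroid plexus spots 64.5 CPM. The same values were 22.9 and 24.6 CPM in O-Ctrl, and 18.6 and 19.4 CPM in Y-Ctrl.

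Of 8 monocyte genes 3 passed the floor, 1 was higher in each comparison, and the list summed to 85.6 CPM in O-Ex, 51.01 CPM in O-Ctrl and 42.97 CPM in Y-Ctrl. The 1 higher in O-Ex over O-Ctrl was Ace, the angiotensin-converting enzyme, at 53.6, 22.2 and 16.2 CPM, a log2 ratio of 1.23, and Ace was also among the 10 leading genes of the choroid plexus group. The 1 higher in O-Ctrl over Y-Ctrl was S100a4, a calcium-binding protein, with a log2 ratio of 0.68. Of 7 neutrophil genes 2 passed the floor, 1 was higher in O-Ex over O-Ctrl and 2 in O-Ctrl over Y-Ctrl, with sums of 6.79, 4.09 and 1.72 CPM. The T and NK cell list ran in the opposite order, at 30.7, 35.4 and 39.1 CPM, with 3 of 11 genes past the floor, none called in O-Ex over O-Ctrl and 1 higher in O-Ctrl over Y-Ctrl. Most of it was Trbc2, a T cell receptor constant region, at 25.4, 28.6 and 34.99 CPM, which also led the cluster with layer 6 cortex genes. The part of these cells in the class II levels was not tested.

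In O-Ex 36 spots had 10 or more Igkc UMIs, 26 of them in the border, and these held 19.4% of its class II UMIs. O-Ctrl and Y-Ctrl had no such spot. Without these spots the log2 ratio of O-Ex over O-Ctrl was 0.76 for Cd74, 0.52 for H2-Eb1, 0.34 for H2-Aa and 0.25 for H2-Ab1, so that Cd74 alone was past 1.5-fold, and the ratio of the sums was 0.42. Of all genes 1.27% were then higher. The removal takes spots rich in class II from O-Ex alone, so the direction of this change was fixed in advance. All 5 blood genes were higher in O-Ex, with a list sum of 2039.5 CPM in O-Ex, 1099.9 CPM in O-Ctrl and 1133.6 CPM in Y-Ctrl. The part of blood in the class II levels was not tested.

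The genes most like the summed class II level across regions were sought over 44 sums of a cluster in a section (16 clusters, 10890 genes of 5 CPM or more on average). By Pearson correlation of log2(CPM + 1) they included Tspo, the mitochondrial translocator protein (0.92), Twsg1, a secreted BMP modulator (0.91), Prelp, a proteoglycan of connective tissue (0.91), and Pcolce, an enhancer of procollagen processing (0.90). Without the border clusters, over 38 sums, the correlations were 0.71 for Tspo, 0.72 for Twsg1, 0.78 for Prelp and 0.64 for Pcolce. The sums of a section share their library, and those of a cluster their tissue. Tspo was at 25.1 CPM in O-Ex, 18.6 CPM in O-Ctrl and 11.4 CPM in Y-Ctrl over whole sections.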

How the data were processed

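Gene expression was measured on 3 Visium sections, 1 per group. The deposited matrices hold raw whole-number UMI counts for every barcode, made by the authors with Space Ranger 2.0.0 and mm10, per the submitters' processing notes, and not normalized. Members and lists were chosen with earlier results of these data known. All members are named. Of each list, the 2 most abundant genes and the 2 with the largest ratio in each comparison could be named, and the 5 genes most like the summed level, of which 1 is not reported here.

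Spots of at least 3000 UMIs were summed and scaled to CPM. Ratios of single genes over whole sections used log2(CPM + 1), which understates differences of low genes, and ratios with intervals used CPM without pseudocount. Intervals are exact Poisson, conditional binomial or Clopper-Pearson intervals at 95% (scipy 1.17.1). The 1.5-fold rule was tried on simulated counts, and the intervals were not. PCR copies are removed by UMIs. Clusters came from scanpy 1.11.5 (2000 variable genes scaled within each section, 30 components, 15 neighbours, Leiden resolution 0.8, igraph 0.11.9), with genes of the immune and interferon lists left out. A cluster was named when at least 4 of a region's markers were among its 30 leading genes. TMM factors came from edgeR 4.0.16. Doublets were not called, because spots are not cells. Some genes of the lists belong to more than 1 list. Alternatives were other minimums, scalings, pseudocounts, floors, sizes and region definitions. Groups came from the titles.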

Additional observations from a re-analysis of the deposited data

Results flagged for a closer look

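Class II UMIs were also present in the barcodes left out for having fewer than 3000 UMIs, a signal outside the spots compared. The 7 genes summed to 85.5 CPM (70.5 to 103) over 1660 such barcodes in O-Ex, 54.4 CPM (42.2 to 69.1) over 1494 in O-Ctrl and 50.8 CPM (38.7 to 65.5) over 1583 in Y-Ctrl, on 114, 67 and 59 UMIs. In all sections this is above the limit of 3 counts, which is 2.25, 2.44 and 2.58 CPM in the same order. With a minimum of 1000 UMIs per spot, 4 members were past 1.5-fold in each comparison, as with 3000. Of all genes, 1.68% were then higher in O-Ex over O-Ctrl and 1.23% in O-Ctrl over Y-Ctrl.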

How the results depend on the processing

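With 1 section per group nothing measures the spread between animals, and depth sets only the counting error. No paired analysis was possible because each group has 1 section. For O-Ex over O-Ctrl the count of members past 1.5-fold, 4 as reported, was 2 with TMM scaling, 2 with ratios centred on the median of all genes, 2 with a pseudocount of 5 CPM, 1 with a floor of 10 CPM, 1 at 2-fold, 1 region-matched, 0 without the border groups and 1 without the Igkc-rich spots, a setting added after seeing the data like the removal of H2-DMa. The log2 ratio of the sums, 0.71, was 0.62 with TMM, 0.63 centred, 0.30 region-matched, 0.15 without the border groups, 0.42 without the Igkc-rich spots and 0.89 without H2-DMa. Without the border groups the ratios of H2-Aa and H2-Ab1 turned to -0.0226 and -0.0765. Of all genes past the floor, 1.74% were higher as reported, 1.19% with TMM, 1.15% centred and 0.613% with the pseudocount of 5 CPM. The share was 0.999% with the floor of 10 CPM, 0.360% at 2-fold, 0.485% without the border groups and 1.27% without the Igkc-rich spots. It was not computed region-matched. For O-Ctrl over Y-Ctrl the count of 4 was 1 with the floor of 10 CPM, 2 at 2-fold, 3 with a pseudocount of 5 CPM (H2-DMb1 at 0.35) and 5 with one of 0.5 CPM (H2-Eb1 at 0.60), and the ratio of the sums, 0.78, was 0.62 without the border groups, 0.69 region-matched and 1.21 without H2-DMa. For O-Ctrl over Y-Ctrl the share of all genes higher was 1.24% as reported, 0.577% with the floor of 10 CPM and 0.425% at 2-fold. With pseudocounts of 5 and 0.5 CPM it was 0.476% and 1.60%. The higher floor tests fewer genes, and for the other settings the cause was not tested.

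Border over rest, 3.76 in O-Ex, 3.45 in O-Ctrl and 2.96 in Y-Ctrl on the log2 scale, was 2.89, 2.48 and 2.27 at resolution 0.4, 3.62, 3.10 and 2.76 at resolution 1.5, 4.02, 3.74 and 3.69 with border spots taken by marker sums, 3.24, 2.78 and 2.54 without scaling within sections, 3.39, 2.98 and 2.21 without the 10 richest spots, and 4.54, 4.25 and 4.46 without H2-DMa, in that order of sections. The border was wider in 2 of these settings. It held 741, 414 and 518 spots at resolution 0.4 and 777, 398 and 460 without scaling, against 286, 213 and 228 as reported. Without scaling, 1 cluster named meninges was led by Vip, Gm42418 and AY036118. Border over rest was 3.44 in O-Ex without the Igkc-rich spots, a setting that could not be run for O-Ctrl and Y-Ctrl, which have no such spots. The share of spots with any class II UMI was 12.7%, 10.1% and 6.45% after thinning, and 14.3%, 11.6% and 7.77% with at least 2 UMIs. Of all values under an alternative that answer a comparison, 44 moved and 26 lay within the range set for no change (1.5 times for a count, the counting interval otherwise). The counts of 3 and 5 with other pseudocounts are among the 26. For single members 115 values lay within the range, 16 moved without a change of sign and 2 reversed.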
